A study of Homo sapiens with 2 samples.

Results

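The enzymes that trim and branch N-glycans in the Golgi were followed in MDA-MB-231 cells, a human triple-negative breast cancer line, with and without knockdown of the RNA-binding protein RBMS1. The 10 genes MAN1A1, MAN1A2, MAN2A1, MAN2A2, MGAT1, MGAT2, MGAT3, MGAT4A, MGAT4B and MGAT5 were taken by their GENCODE release 29 symbols from the 49627 genes listed in either library. The knockdown cells carried a lentiviral short hairpin RNA against RBMS1 in the pLKO.1 vector, the study's methods describe control cells with the pLKO.1 vector and selection with puromycin. Each group was sequenced as 1 library of total RNA, so no difference has a replicate check and no test was made.

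N-linked glycans reach the Golgi as high-mannose trees. The class I mannosidases MAN1A1 and MAN1A2 trim them, MGAT1 adds the first antennal N-acetylglucosamine (GlcNAc), the class II mannosidases MAN2A1 and MAN2A2 then remove further mannose, and MGAT2, the MGAT4 enzymes and MGAT5 start the remaining antennae, while MGAT3 adds a bisecting GlcNAc that hinders further branching. Antennae started by MGAT5 are favoured sites for the galactose-containing chains that galectins bind, and MGAT5 is known for its part in the growth and spread of breast tumours.

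Levels are given in FPKM, the number of fragments per kilobase in a library of fixed size, as Cufflinks estimated them for each transcript. A gene's level adds up its reference transcripts and those assembled ones on its strand with at least 1 intron in common. The interval beside a level is Cufflinks' own confidence interval, summed in the same way, and covers uncertainty within the library only. The log2 ratio sets the knockdown over the control after adding 1 FPKM to each, so changes of low genes are understated.

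RBMS1 itself measured 3.76 FPKM under knockdown against 24.1 FPKM in the control, so the library labelled as the knockdown held 15.6% of the control level. Markers of the line were high in both libraries, with VIM at 496 FPKM in the knockdown and 563 FPKM in the control library and CD44 at 154 and 204 FPKM. The hormone receptor genes ESR1 and PGR were below 0.1 FPKM in each library, as was the epithelial cadherin CDH1. KRT8, a luminal keratin counted here among the genes thought to be low in this line, was at 160 FPKM in the knockdown and 122 FPKM in the control library, and ERBB2 was at 7.50 and 7.005 FPKM. Of the other genes of that list, EPCAM was at 1.93 FPKM in the knockdown and 3.66 FPKM in the control library with intervals apart, GATA3 at 2.11 and 1.56 FPKM, and FOXA1 at 0.0422 and 0.266 FPKM. The 6 markers used here of blood, vessel, stromal and liver cells summed to 1.603 FPKM in the knockdown and 1.30 FPKM in the control library, with PDGFRB at 0.855 FPKM the highest in the knockdown library, COL1A1 at 0.797 FPKM the highest in the control library, and CD3E listed at 0 in both.

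Of the 10 genes, 7 had a mean of at least 1 FPKM over the libraries and entered the counts, beside 11186 genes in all. Of these 7, 6 had a log2 ratio below 0, beside 47.2% of all genes counted, and their median log2 ratio, which is the value of MAN2A2, was -0.41, against 0.02 over all genes. With reference transcripts only the median was -0.09 over 6 enzymes, against 0.02 over all genes. MAN2A1 was the 1 enzyme at least 2-fold lower in the knockdown library, where 2.80% of all genes were, and 0 of the 7 were at least 2-fold higher, where 2.96% of all genes were. The intervals of the libraries lay apart, with the knockdown below the control, for MAN2A1, MGAT5 and MGAT4B, 3 of 7 genes beside 11.5% of all genes. None of the 7 had its interval higher and apart in the knockdown library, against 13.3% of all genes. Apart from MAN2A1 the log2 ratios below 0 were short of 2-fold, with MGAT4A at 47.4% of the control level when no FPKM was added, and the size of the MAN2A1 value depended on which of its transcripts were counted.

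**Figure D1:**
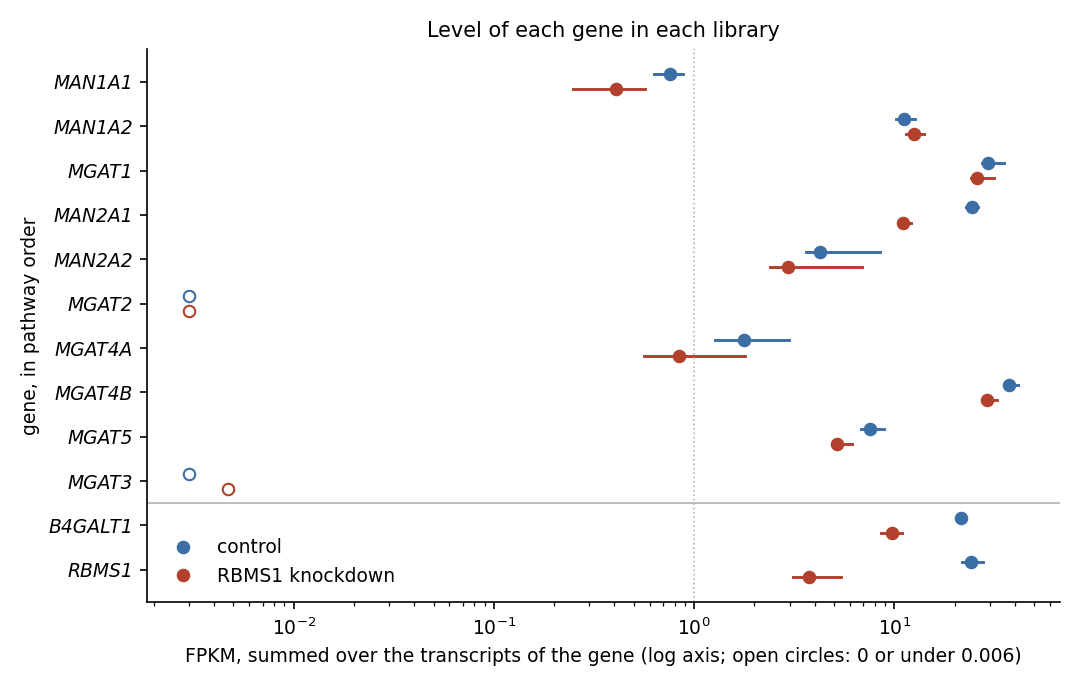
Summed FPKM of each of the 10 enzymes, and of B4GALT1 and RBMS1 under the line, on a log axis, with Cufflinks' interval as a bar. Blue is the control library and red the knockdown library; open circles stand for genes at or near 0, and the dotted line is 1 FPKM. The intervals of MAN2A1, MGAT4B and MGAT5 lie apart, and those of MAN1A2, MGAT1, MAN2A2 and MGAT4A overlap.

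Of the pair MAN1A1 and MAN1A2, MAN1A2 carried nearly all of the transcript. MAN1A2 (ENSG00000198162, chr1:117367449-117528872, plus strand) was at 12.5 FPKM (interval 11.4 to 13.98) in the knockdown library against 11.2 FPKM (10.1 to 12.7) in the control library. The intervals overlapped and the log2 ratio was 0.15, the only value above 0 among the 7 genes. MAN1A1 (ENSG00000111885, chr6:119177209-119349761, minus strand) was at 0.408 FPKM (0.250 to 0.566) in the knockdown library against 0.754 FPKM (0.628 to 0.879) in the control library. That gene missed the mean of 1 FPKM, although its intervals lay apart. MAN1A1 made up 3.16% of the summed FPKM of both genes in the knockdown and 6.31% in the control library.

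The near-equal sums of MAN1A2 hid transcripts of different shape. The reference transcript MAN1A2-201, with 13 exons and the whole coding sequence of 1923 nt, was at 6.38 FPKM (6.001 to 6.77) in the knockdown library against 6.34 FPKM (5.94 to 6.74) in the control library, which is no difference within these intervals. The remainder in the knockdown library was an assembled transcript of 6 exons at 6.12 FPKM (5.44 to 6.79), which left the coding sequence after exon 5 for a final exon of 45 nt inside the next intron and so held 855 nt, or 44.5%, of the coding bases. The remainder in the control library was a pair of assembled transcripts of 14 exons at 3.01 and 1.83 FPKM, which ran through exons 6 to 12 and into exon 13 but spliced away the last 17 coding bases. Both kinds of assembled transcript began 614 nt upstream of the annotated start.

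Exon levels were obtained by adding up the FPKM of the transcripts that cover each exon. They restate the transcript levels above by position and are no separate measure of reads over each exon. On this sum MAN1A2 stood at one level over exons 1 to 12 in the control library. It was lower over exon 13, with a mean of 7.07 FPKM there, whereas in the knockdown library the sum stepped down after exon 5. Over exon 3 the summed FPKM was 12.5 in the knockdown and 11.2 in the control library, a log2 ratio of 0.15. Over exon 6 it was 6.38 and 11.2 FPKM, a log2 ratio of -0.72. The mean over the coding bases was 9.10 FPKM in the knockdown and 11.1 FPKM in the control library, a log2 ratio of -0.27, so the direction of the MAN1A2 value turned with the counting. The coding junction at which the short transcript parts from the full one joins exons 5 and 6 of MAN1A2-201, and is shown because reads across it belong only to the longer transcripts; capitals mark the first 15 bases of exon 6 (chr1:117442231-117442245), after the last 15 bases of exon 5 (chr1:117420635-117420649), from the GENCODE transcript sequence.
MAN1A2 exons 5 and 6: ctatcaggagaggagATATTCAAGATTAAA

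In the gene sums, the class II mannosidase MAN2A1 gave the largest difference among the 10 genes. MAN2A1 (ENSG00000112893, chr5:109689366-109869625, plus strand) was at 11.1 FPKM (10.5 to 12.2) in the knockdown library against 24.3 FPKM (22.9 to 26.3) in the control library. The knockdown library was the lower by far, at 45.4% of the control level, and the log2 ratio was -1.07, with -1.25 to -0.86 from the ends of the intervals. Among the 2008 genes of like level, those with a mean FPKM within 0.5 on the log2 scale, 1.79% had a lower ratio. B4GALT1, the galactosyltransferase that the study followed and that extends the antennae, had nearly the same ratio of -1.07 in this sum, from 9.70 FPKM in the knockdown and 21.4 FPKM in the control library.

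Part of the MAN2A1 difference lay outside the coding transcript. In the knockdown library the whole sum was 1 assembled transcript of 22 exons and 7027 nt at 11.1 FPKM. In the control library the reference transcript MAN2A1-201, with the same number of exons and 4667 nt, was at 16.1 FPKM (15.2 to 16.98), and a second reference transcript, MAN2A1-203, was at 8.25 FPKM (7.72 to 8.77). MAN2A1-203 is annotated as a retained intron, begins inside intron 20, has 2 exons and holds 261 nt, or 7.60%, of the 3432 coding bases. With transcripts that held the complete coding sequence only, the levels were 11.1 and 16.1 FPKM, the intervals still lay apart and the log2 ratio was -0.50, short of 2-fold. MGAT4A then had the larger decrease, with -0.55, as it did by the mean over the coding bases, with -0.59 against -0.55 for MAN2A1. The same rule moved B4GALT1 the other way, to -1.52, so the likeness of the 2 genes depended on the transcripts counted.

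With transcript levels summed in the same way along the gene, which again restates them, exons 1 to 20 stood at 11.1 FPKM in the knockdown and 16.1 FPKM in the control library. Over exon 21, where MAN2A1-203 adds to the coding transcript, the levels were 11.1 and 24.3 FPKM. Downstream of the annotated end of MAN2A1-201, over the next 2360 nt, the order turned, with 11.1 FPKM in the knockdown and 8.25 FPKM in the control library, because the long assembled transcript covered that stretch and MAN2A1-201 did not. The coding mannosidase was thus lower by the smaller of the 2 log2 ratios, and the 2-fold count rested on the 3′ fragment of the control library. In the FPKM columns of a second table, which holds only transcripts that the authors had selected by their own comparison, MAN2A1-201 stood at 19.9 in the knockdown and 30.7 in the control library, on a scale 1.74 and 1.78 times that of the values above by the median. The junction of exons 20 and 21 is shown because MAN2A1-203 lacks it and every transcript with the complete coding sequence has it; capitals mark exon 21 (chr5:109865036-109865050), after the end of exon 20 (chr5:109855320-109855334).
MAN2A1 exons 20 and 21: acaatacagtcaaagGTGGGCAATGGGCAC

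**Figure D2:**
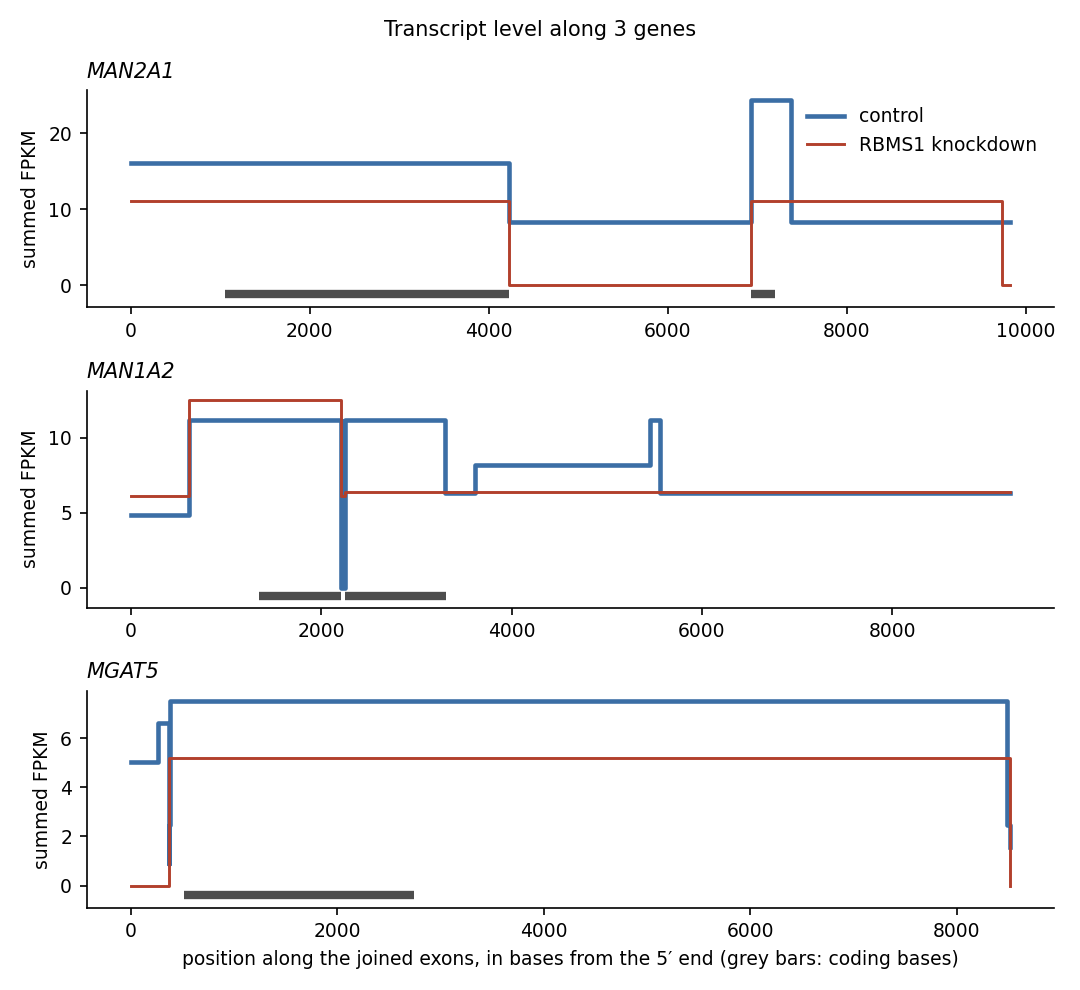
Summed FPKM of the transcripts that cover each base along the joined exons of MAN2A1, MAN1A2 and MGAT5, counted in bases from the 5′ end, for the control library (blue) and the knockdown library (red). Grey bars mark coding bases, and only transcripts of at least 0.5 FPKM are drawn. In FPKM the libraries differ most over the last coding exons of MAN2A1, after the fifth coding exon of MAN1A2 and over the first exon of MGAT5.

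MAN2A2 (ENSG00000196547, chr15:90902218-90922584, plus strand), the other class II mannosidase, was at 2.93 FPKM (2.39 to 6.86) in the knockdown library against 4.23 FPKM (3.61 to 8.50) in the control library. The intervals overlapped widely, and the log2 ratio of -0.41 was within them. The coding transcript MAN2A2-216 was at 1.07 FPKM (0.894 to 1.24) and 1.27 FPKM (1.08 to 1.46), again overlapping. MAN2A2-204, annotated as a target of nonsense-mediated decay, was at 1.004 FPKM (0.807 to 1.20) in the knockdown and 1.69 FPKM (1.44 to 1.95) in the control library. A transcript with the same annotation, MAN2A2-221, had 0.862 FPKM in the knockdown library but was listed at 0 in the control library, where an assembled transcript of 23 exons at 1.26 FPKM was found instead. In the selected table MAN2A2 has 2 coding transcripts that the assemblies list at 0, ENST00000360468 at 1.405 in the knockdown and 3.20 in the control library and ENST00000560147 at 0 and 1.497. The antisense gene AC068831.4 overlaps the last exons of MAN2A2 and was at 5.95 FPKM (4.91 to 6.99) in the knockdown and 10.7 FPKM (9.27 to 12.2) in the control library. The strand of the libraries is not given in the sources used here, so reads of the gene and of its antisense partner cannot be told apart there and the MAN2A2 values are uncertain.

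MGAT1, whose product gates all hybrid and complex N-glycans, was among the most abundant of the enzymes and nearly level in sum. MGAT1 (ENSG00000131446, chr5:180784782-180815652, minus strand) was at 25.9 FPKM (24.1 to 31.5) in the knockdown library against 29.3 FPKM (27.3 to 35.3) in the control library, with overlapping intervals and a log2 ratio of -0.17. Its transcripts moved in opposite directions. MGAT1-201 was at 19.2 FPKM (17.96 to 20.4) in the knockdown and 24.8 FPKM (23.4 to 26.3) in the control library. MGAT1-203, which starts 7252 nt further upstream and shares no intron with MGAT1-201, was at 6.75 FPKM (6.12 to 7.39) in the knockdown and 4.47 FPKM (3.94 to 5.003) in the control library. In both transcripts the intervals lay apart, and the share of the upstream start was 26.05% in the knockdown against 15.3% in the control library. Both transcripts carry the complete coding sequence of 1335 nt in their last exon, so the exchange concerned the 5′ untranslated exons.

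Reference transcripts of a single gene with intervals apart in opposite directions were found in 10.5% of the 11186 genes, a count made after the MGAT1 values had been seen, and in 3 of the 7 enzymes, MGAT1, MGAT5 and MAN2A2. The bases just before the MGAT1 starts are shown because the 2 transcripts begin at different starts. They are the last 30 bases before the RefSeq start nearest to each transcript, on the minus strand of GRCh38.p14. The start nearest to MGAT1-203 coincides with it (chr5:180810138-180810167), and the one nearest to MGAT1-201 lies 79 nt inside it (chr5:180802807-180802836).
MGAT1-203: gggagggccgggccgctgggggtcgagggg
MGAT1-201: gcccgcccggccgtccggccccggcgcgcc

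Both MGAT1 start regions were rich in G and C, at 68.0% of the 250 bases before the start of MGAT1-203 and 77.6% before that of MGAT1-201, against a median of 58.0% over 35114 RefSeq promoters. The observed over expected frequency of CpG was 0.639 at the start of MGAT1-203 and 0.806 at that of MGAT1-201, against a median of 0.558. RefSeq promoters were matched for 7 of the 10 enzymes.

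MGAT2, which adds the GlcNAc of the opposite arm once mannosidase II has acted, was listed at 0 in both libraries. MGAT2 (ENSG00000168282, chr14:49620795-49623481, plus strand) is a gene of 1 exon, and its upper interval bounds were 0.0186 FPKM in the knockdown and 0.0203 FPKM in the control library. On the opposite strand, transcript ENST00000555043 of AL139099.1 (chr14:49620815-49623480) was at 23.2 FPKM (21.9 to 24.6) in the knockdown library against 20.5 FPKM (19.2 to 21.8) in the control library. It overlaps MGAT2 over 2469 nt, the whole of its own exons and 91.9% of MGAT2, including all 1341 coding bases. Without the strand of the reads, those of MGAT2 and of AL139099.1 cannot be told apart, so the level of MGAT2 is unknown in both libraries and its 0 is no measure of absence. Of 973 single-exon coding genes, 62.7% were listed at 0 in both libraries, as were 24 of the 44 that face an opposite-strand exon of a gene at 1 FPKM or more in both.

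The MGAT4 enzymes, which start the branch on the MGAT1 arm, were carried by MGAT4B. MGAT4B (ENSG00000161013, chr5:179797597-179806952, minus strand) had the highest value of the enzymes in both libraries, MGAT2 being unknown and the interval of MGAT1 overlapping in the knockdown library, at 28.9 FPKM (27.3 to 32.6) in the knockdown and 37.4 FPKM (35.3 to 41.5) in the control library. The intervals lay apart and the log2 ratio was -0.36. The whole value came from 1 transcript, MGAT4B-201, so no other choice of transcripts moved it, and of all the enzymes this was the simplest to read. The selected table holds 3 minor MGAT4B transcripts that the assemblies list at 0. On that table's scale ENST00000519836 was at 1.497 in the knockdown and 4.95 in the control library, while ENST00000518980 and ENST00000520969 were at 0.490 and 0.510 in the knockdown and at 0 in the control library.

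MGAT4A (ENSG00000071073, chr2:98619106-98731126, minus strand) was low, at 0.838 FPKM (0.560 to 1.79) in the knockdown library against 1.77 FPKM (1.27 to 2.99) in the control library. Only the control library was above 1 FPKM, and the intervals overlapped at a log2 ratio of -0.59. MGAT4A gave 2.81% of the summed MGAT4A and MGAT4B level in the knockdown and 4.52% in the control library. Its FPKM was spread over 3 transcripts in the knockdown and 4 in the control library, each below 1 FPKM.

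MGAT5 (ENSG00000152127, chr2:134119983-134454621, plus strand) was at 5.20 FPKM (4.87 to 6.12) in the knockdown library against 7.52 FPKM (6.81 to 8.85) in the control library. The intervals lay apart, the knockdown library stood at 69.1% of the control level, and the log2 ratio was -0.46. The mean over the coding bases and the transcripts with the complete coding sequence gave the same ratio, since every MGAT5 transcript found carried all 2223 coding bases.

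The transcripts of MGAT5 were not the same in both libraries. The knockdown library held MGAT5-201 alone, at 5.20 FPKM (4.87 to 5.52). The control library held MGAT5-201 at 0.894 FPKM (0.735 to 1.053), MGAT5-202 at 1.58 FPKM (1.39 to 1.78) and an assembled transcript of 17 exons at 5.04 FPKM (4.69 to 5.39). MGAT5-202 and the assembled transcript begin with a further exon, which in MGAT5-202 starts 134077 nt upstream of the start of MGAT5-201. This upstream exon was in 88.1% of the MGAT5 FPKM of the control library and in none of that of the knockdown library. In the selected table MGAT5-202 was at 0.472 in the knockdown and 3.69 in the control library. That table comes from the same libraries and holds transcripts picked by the authors' own comparison, so it gives no separate support.

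MGAT5-201 and MGAT5-202 share 15 introns, and the first exon of MGAT5-201 begins only 3 nt before the second exon of MGAT5-202. The models thus differ in little but the upstream exon of 110 nt, and counting reference transcripts only, which leaves out the assembled one, turned the MGAT5 log2 ratio to 0.83. Intron 1, which only transcripts from the upstream start cross, held signal in both libraries. There, single-exon assembled transcripts that the files place on the MGAT5 strand numbered 35 in the knockdown and 49 in the control library, covered 36121 and 46994 nt, and had a mean of 0.710 and 1.21 FPKM over the bases covered. Over the 23352 nt covered in both libraries the mean was 0.716 FPKM in the knockdown and 1.20 FPKM in the control library, a log2 ratio of -0.74 without any FPKM added. Among 699 genes with at least 5000 nt of such shared intron signal the median was -0.10 and the quartiles -0.34 and 0.13, and 4.01% of them lay below MGAT5. The signal within this intron was thus lower in the knockdown library and still present there, although no transcript with the upstream exon was assembled. Without a splice site to orient these fragments and without the strand of the libraries, how much of the signal belongs to MGAT5 cannot be told.

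The 30 bases before the RefSeq start nearest to each MGAT5 transcript are shown for the same reason as those of MGAT1, on the plus strand of GRCh38.p14. The upstream one (chr2:134119905-134119934) lies before a start 247 nt ahead of MGAT5-202, and the inner one (chr2:134254042-134254071) before a start 187 nt ahead of MGAT5-201. The upstream region had 58.4% G and C over 250 bases and a CpG frequency of 0.846 of that expected, above 75.1% of all promoters. The inner region had 48.4% and 0.309, above 33.9% of all promoters.
MGAT5 upstream start: aaacgtccccggccggaatttctgccttct
MGAT5 inner start: taacacacgcagacgcacacttcccccttc

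MGAT3, whose bisecting GlcNAc stops other branching enzymes from acting, was at or near 0. MGAT3 (ENSG00000128268, chr22:39457344-39492194, plus strand) was at 0.00472 FPKM (0 to 0.180) in the knockdown library and listed at 0 in the control library, and no fold is given.

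In the control library the order of levels from the highest was MGAT4B, MGAT1, MAN2A1, MAN1A2, MGAT5, MAN2A2, MGAT4A and MAN1A1. In the knockdown library MAN1A2 stood above MAN2A1 and the rest of the order was the same. In that library the intervals of MAN1A2 and MAN2A1 overlapped, as did those of MGAT4B and MGAT1, of MAN2A2 and MGAT5 and of MGAT4A and MAN1A1. In the control library only MAN2A2 and MGAT5, of the neighbours in that order, had overlapping intervals. Summed over the 4 mannosidases the level was 26.9 FPKM in the knockdown and 40.5 FPKM in the control library, and over MGAT1, MGAT4A, MGAT4B and MGAT5, without the unknown MGAT2, it was 60.9 and 76.0 FPKM. The paired enzymes are related in sequence, and the longest run of identical coding bases was 24 nt between MAN1A1 and MAN1A2, 27 nt between MAN2A1 and MAN2A2 and 23 nt between MGAT4A and MGAT4B. Between the unrelated MGAT1 and MGAT2 it was 10 nt.

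**Figure D3:**
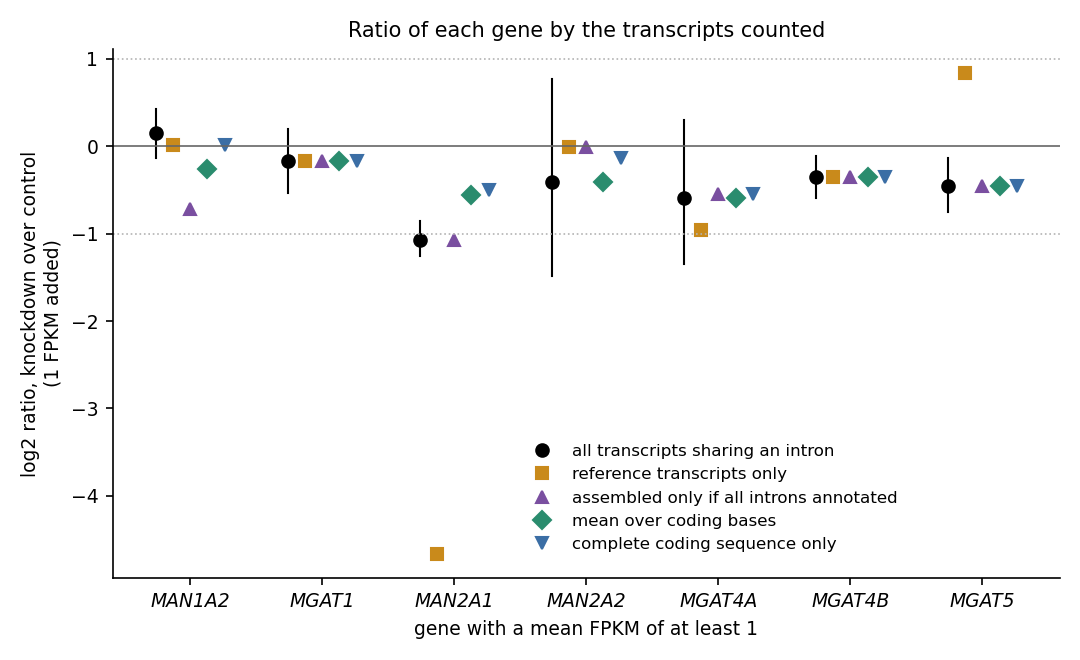
Log2 ratio of knockdown over control, with 1 FPKM added, for the 7 enzymes with a mean of at least 1 FPKM, under 5 ways of choosing the transcripts that are counted. The vertical lines run between the ratios given by the ends of Cufflinks' intervals, and the dotted lines mark 2-fold. MGAT4B and MGAT1 keep their value under these 5 (with MGAT1-201 alone, not drawn, MGAT1 gives -0.36), MGAT5 lies above 0 with reference transcripts only, and MAN2A1 passes 2-fold only where its 3′ fragment is counted or its assembled transcript is left out.

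The 3′ untranslated regions of the coding transcripts were searched for ATATA on the transcribed strand, overlapping matches included, since RBMS1 is known to bind AU-rich RNA. MAN1A2-201, with a 3′ untranslated region of 5915 nt, held 32 matches or 5.41 per 1000 nt, more than 97.7% of the 855 expressed genes with a region of like length. MAN1A1, with 2610 nt, held 16 matches or 6.13 per 1000 nt, more than 97.4% of regions of like length. MGAT5-201, with 5773 nt, held 0, whereas 97.4% of the 892 regions of like length had at least 1. MGAT1, MGAT2 and MGAT3 also held 0, as did the 180 nt annotated for MAN2A1-201, among whose 1029 regions of like length 20.02% had a match. MGAT4A-203, with 61 nt, held 0 as well, while MGAT4B held 2 and MAN2A2-216 held 4. Among the enzymes with matches the log2 ratio was 0.15 for MAN1A2, -0.32 for MAN1A1, -0.36 for MGAT4B and -0.41 for MAN2A2. B4GALT1, with 2 matches in 2817 nt, had -1.07. Of the enzymes without a match and with a mean of at least 1 FPKM, MAN2A1 had -1.07, MGAT4A -0.59, MGAT5 -0.46 and MGAT1 -0.17. These ratios are gene sums, whereas the search covered 1 annotated transcript per gene. The longer 3′ ends of other MAN2A1 and MGAT4A transcripts were not searched, so a lack of matches there is not known. The MAN1A2 sum includes assembled transcripts that lack all or part of the searched region, and MAN1A2-201 alone gave 0.008. A relation between matches and ratios was not tested. The first match in MAN1A2 (position 337 of the region) and in MGAT4B (position 326) is shown with its surroundings and the letters searched for in capitals, as a description of these letters and not as a site.
MAN1A2: agcaagtcaagaATATAgagcaccttgca
MGAT4B: acactggaatgcATATActactttatgtg

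In the gene sums, the medians of the other steps of N-glycan synthesis lay nearer to that of all genes than the median of the enzymes. With reference transcripts only the median of the enzymes was -0.09, and the other lists were not compared under that setting. The 10 genes listed here for trimming and quality control in the endoplasmic reticulum had a median log2 ratio of -0.07, between MOGS with -0.29 and EDEM1 with 0.22. None of them had its intervals apart, beside 11.5% of all genes lower and 13.3% higher. Of the 10 genes of UDP-GlcNAc supply, which feed every MGAT enzyme, the median was -0.10, and NAGK, the kinase that salvages GlcNAc, was the 1 at least 2-fold lower, from 24.1 FPKM in the control to 9.43 FPKM in the knockdown library. SLC35D2 had the largest increase there, with 0.36. Among 19 genes of the lipid-linked precursor with a mean of at least 1 FPKM the median was 0.07, DPM2 had the largest decrease with -0.28, and ALG12 and ALG14 were at least 2-fold higher. ALG12 was at 3.22 FPKM in the knockdown and 0.907 FPKM in the control library, and ALG14 at 5.06 and 0.568 FPKM with overlapping intervals. The control interval of ALG14 ran from 0.485 to 722 FPKM, so its control level and its fold are uncertain.

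The 9 genes listed here for galactosylation of the antennae and core fucosylation include the transporters SLC35A2 and SLC35C1. Among these 9, B4GALT1 was the 1 at least 2-fold lower, the median was -0.11, and SLC35A2 had the largest increase with 0.18. The genes of glycan breakdown in the lysosome and cytosol had a median of -0.07, from MANBAL with -0.41 to MANBA with 0.15; MANBAL is listed for its likeness in name to MANBA and is not a known glycan-degrading enzyme, and the next lowest was MAN2B2 with -0.24. The Golgi tethers and ion balance genes had a median of 0.11, from ATP6V0A2 with -0.49 to GOLGA2 with 0.83. Genes lower and higher with intervals apart numbered 1 and 2 in UDP-GlcNAc supply and 0 and 3 in the lipid-linked precursor list. They numbered 1 and 0 in the galactose and core fucose list, 1 and 0 in glycan breakdown, and 1 and 2 in the Golgi tether list. The shares over all genes were 11.5% lower and 13.3% higher. Of the 5 relatives of the branching and trimming enzymes outside the 10, only MGAT5B, which branches O-mannosyl glycans in brain, passed a mean of 1 FPKM, with 4.61 FPKM in the knockdown and 1.95 FPKM in the control library, intervals apart and a log2 ratio of 0.93. In the gene sums MGAT5B was thus higher where MGAT5 was lower. The MGAT5 log2 ratio turned to 0.83 with reference transcripts only and to 1.71 with the top reference transcript only. MGAT5B was not compared under these settings.

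**Figure D4:**
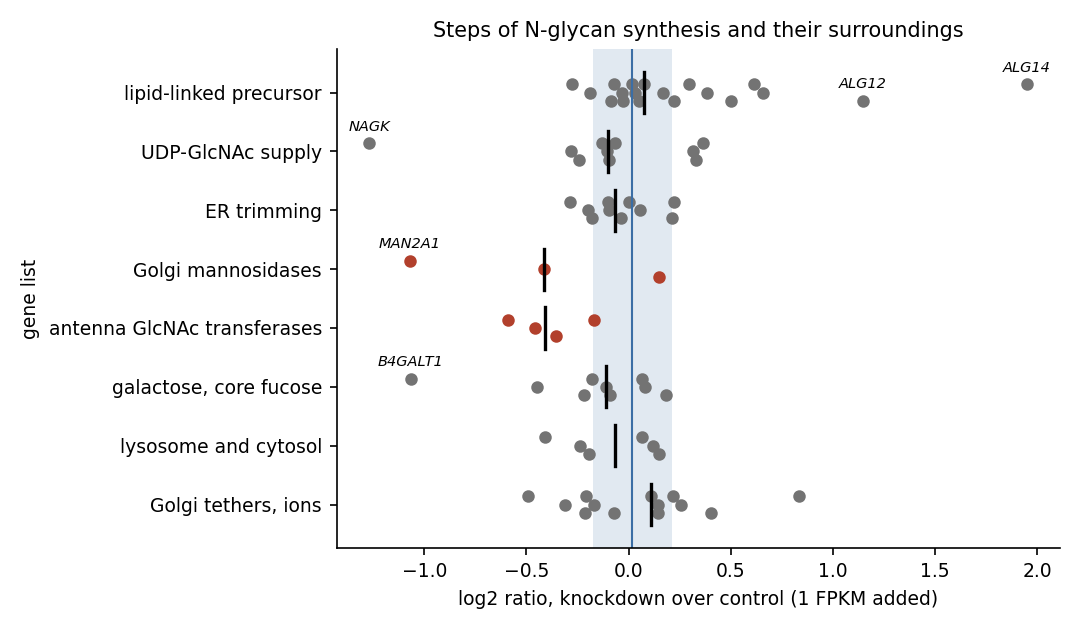
Log2 ratio of knockdown over control, with 1 FPKM added, of each gene with a mean of at least 1 FPKM, by list, with black bars at the list medians. Red points are the branching and trimming enzymes and grey points other lists; the blue line is the median over all genes and the band spans their quartiles. The 2 red lists have medians of -0.41, and genes past 2-fold are named.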

How the data were processed

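RNA-seq of MDA-MB-231 cells gave 1 knockdown and 1 control library. Per the submitters' processing notes the authors used Bowtie2 2.0.6, TopHat2 2.0.9, Cufflinks 2.1.1 and Cuffdiff 2.1.1. The authors deposited, per library, transcripts with FPKM, interval bounds and coverage, and a table of their own comparison, of which only the FPKM columns of both libraries were used; its fold changes and p-values were not. The genome build is not given in the sources used here, and 98.1% of matched transcripts start as in GENCODE 29 on GRCh38. Read counts are not in the files, so depth in reads is unknown; coverage per FPKM was 12.3 in the knockdown and 11.3 in the control library by the median.

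Gene sums, log2 ratios (1 FPKM added) and counts (mean of at least 1 FPKM, 2-fold) were computed in Python 3, and the steps were tested on simulated data. The genes named are all 10 enzymes, RBMS1, B4GALT1, marker genes, member transcripts of at least 1 FPKM, and of each list those 2-fold changed with the largest decrease and increase; AL139099.1, AC068831.4 and lower transcripts were named after their values were seen, as were the exon, start site, intron and sequence comparisons. The members and lists were chosen with earlier results of these data known. Alternatives were 2 other pseudocounts, 3 scalings, 2 other filters and other choices of transcripts. 1 of the planned marker genes is not reported here. With 1 library per group no p-value was computed.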

Additional observations from a re-analysis of the deposited data

Results flagged for a closer look

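Signal outside the gene sums of at least 1 FPKM in the knockdown library, with an interval above that of the control library, was found at the MGAT2 and MAN2A1 loci. This rule took higher signal only, and the share of all gene loci that meet it was not computed. At MAN2A2, AC068831.4 went the other way, with intervals of 4.91 to 6.99 FPKM in the knockdown and 9.27 to 12.2 FPKM in the control library. Intron fragments of MGAT5 were also mostly lower in the knockdown library. AL139099.1, on the strand opposite to MGAT2, was at 23.2 FPKM (21.9 to 24.6) in the knockdown library against 20.5 FPKM (19.2 to 21.8) in the control library, a log2 ratio of 0.17. Its intervals nearly met, at 21.87 and 21.81 FPKM. How much of this signal comes from MGAT2 cannot be told apart without the strand of the reads. Within an intron of MAN2A1, and placed on its strand in the file, an assembled single-exon transcript of 382 nt (chr5:109797573-109797954) was at 3.29 FPKM, with a lower bound of 1.78 FPKM, in the knockdown library, and no transcript was assembled over these bases in the control library.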

How the results depend on the processing

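The settings were compared with the values of the report for the counts, the median and the single genes other than MGAT2; the filters apply to the counts and the median only, and intervals were not compared under other added FPKM. The median log2 ratio of the enzymes stayed below 0 under every alternative, between -0.51 and -0.09, the latter with reference transcripts only. The count lower in the knockdown library, 6 of 7, was 4 of 6 genes with reference transcripts only and with the top reference transcript only, 4 of 5 with a mean of at least 5 FPKM, 7 of 8 with TPM, 7 of 10 with no filter, and 7 of 7 with annotated introns only and with the mean over the coding bases, beside 45.7% to 50.8% of all genes over these settings. The count at least 2-fold lower went from 1 to 0 with 5 FPKM added, and also with the mean over the coding bases and with complete coding sequences only, both chosen after seeing the data; the last 2 leave out or dilute the 3′ fragment of MAN2A1. The count lower with intervals apart went from 3 to 5 with the mean over the coding bases (14.9% of all genes, against 11.5% in the report) and to 2 with reference transcripts only (15.5%). It was 4 of 7 with annotated introns only (12.6%) and with complete coding sequences only (22.3%). With the top reference transcript only it was 4 of 6 (22.7%), with TPM 4 of 8 (11.7%) and with no filter 4 of 10 (7.64%). With reference transcripts only, 1 of 6 genes was higher with intervals apart, beside 18.1% of all genes, and with the top reference transcript only, 1 of 6 was higher with intervals apart, beside 26.9%, and 1 at least 2-fold higher, beside 4.97%. That gene was MGAT5, whose log2 ratio of -0.46 reversed to 0.83 and 1.71 under these settings, which leave out its assembled control transcript. The same settings leave out the assembled knockdown transcript of MAN2A1 and took its log2 ratio from -1.07 to -4.66 and -4.09. Where assembled transcripts counted only with all introns annotated, MAN1A2 went from 0.15 to -0.72 with intervals apart and MAN2A2 from -0.41 to -0.01. Under the 3 other scalings no direction changed for the 7 genes. No paired analysis was possible because each group holds a single library, so none could be left out either. The files give no read counts, so what depth limits for genes below 1 FPKM, such as MAN1A1 and MGAT3, was not tested.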

Other observations

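The minor transcripts of MGAT4A differed between the libraries without reaching 1 FPKM. In the knockdown library an assembled transcript of 16 exons and 8331 nt was at 0.437 FPKM and MGAT4A-203 at 0.335 FPKM. In the control library MGAT4A-203 was at 0.902 FPKM and MGAT4A-202, with the long 3′ end, at 0.569 FPKM, while MGAT4A-202 was listed at 0 in the knockdown library. MAN1A1 was likewise an assembled transcript of 12 exons at 0.189 FPKM beside MAN1A1-201 at 0.218 FPKM in the knockdown library, and MAN1A1-201 alone at 0.754 FPKM in the control library.

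Transcripts assembled from the reads made up 100% of the MAN2A1 level in the knockdown against 0% in the control, and 0% of the MGAT5 level in the knockdown against 67.1% in the control library. The gene values of both therefore set a reference model in one library beside an assembled one in the other. For MAN1A2 the assembled share was 48.9% in the knockdown and 43.3% in the control library, and for MGAT1 and MGAT4B it was 0% in both.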
